A study of Mus musculus with 48 samples.

Results

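Synaptic vesicle and neuronal structure genes were followed as a module of 39 genes in the SN of mice, chosen by symbol from the 19601 genes of the batch-corrected tables, and all 39 passed the filter on low counts. They were arranged by role as 6 neuronal nuclear and cytoskeletal genes, 7 genes of the membrane fusion machinery and 6 synaptotagmins and complexins. The others were 9 proteins of the vesicle, 4 of the active zone, 3 of endocytosis and 4 of synaptic adhesion and the postsynaptic scaffold. The figure legends label the synaptotagmins and complexins as calcium sensors and complexins. RNA-seq was performed on poly(A) RNA of the dissected SN of male C57BL/6J mice. Preformed fibrils (PFF) of α-synuclein, or α-synuclein monomer as the control protein, were placed in the right striatum at 121 days of age, and the SN was taken 90 to 98 days later. Mice breathed 21% O2 (normoxia) or 11% O2 (hypoxia). The sources differ on how long 11% O2 was breathed, either for the 12 weeks after injection or, after 6 weeks of 21% O2, for the last 6 weeks. In the delayed-start experiment of the paper, only PFF mice breathed 11% O2. The groups were 11 monomer and 12 PFF mice at 21% O2, and 9 monomer and 10 PFF mice at 11% O2, out of 48 sequenced mice. The SN was taken 91 to 98 days after injection in the monomer mice at 11% O2. In each of the other groups it was taken after 90 to 91 days. Comparisons with the monomer mice at 11% O2 therefore differ in part in time after injection. Every mouse, controls included, had received α-synuclein, and the labels name no transgene. The injection was on 1 side, and the tissue was the SN as a whole and not its pars compacta alone. In such bulk tissue fewer cells of a type and less RNA per cell cannot be told apart.

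Neurons release transmitter by fusing vesicles with the membrane of the nerve terminal. Rab3 proteins, synapsins and SV2 proteins sit on the vesicle, the active zone scaffold holds it in place, syntaxin, SNAP25 and VAMP zip the membranes together when a synaptotagmin binds calcium, and dynamin retrieves the membrane afterwards. In the SN some neuronal cell bodies are of dopaminergic neurons, mostly of the pars compacta, which make tyrosine hydroxylase (Th). Others are of GABAergic neurons, mostly of the pars reticulata, which make glutamate decarboxylase (Gad1). Striatal afferents end in the SN, but their transcripts are largely in the striatum.

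The promoters of 4 members on which the results below turn are given, since Sv2c varied with Th, Syt2 and Vamp1 varied with Gad1, and Shank3 had the smallest adjusted p of the members for PFF at 21% O2. Each runs 5′ to 3′ from 250 bases before to 50 bases after a transcription start (RefSeq, GRCm38.p6), and capitals mark the GC box, GGGCGG or its reverse complement CCGCCC.
Sv2c, chr13:96132528-96132827, reverse strand: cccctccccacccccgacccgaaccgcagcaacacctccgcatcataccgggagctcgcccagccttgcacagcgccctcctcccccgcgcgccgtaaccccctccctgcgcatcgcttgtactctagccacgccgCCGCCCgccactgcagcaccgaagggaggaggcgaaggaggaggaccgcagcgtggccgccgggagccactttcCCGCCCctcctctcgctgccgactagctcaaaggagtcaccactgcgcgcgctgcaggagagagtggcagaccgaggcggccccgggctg
Syt2, chr1:134646362-134646661, forward strand: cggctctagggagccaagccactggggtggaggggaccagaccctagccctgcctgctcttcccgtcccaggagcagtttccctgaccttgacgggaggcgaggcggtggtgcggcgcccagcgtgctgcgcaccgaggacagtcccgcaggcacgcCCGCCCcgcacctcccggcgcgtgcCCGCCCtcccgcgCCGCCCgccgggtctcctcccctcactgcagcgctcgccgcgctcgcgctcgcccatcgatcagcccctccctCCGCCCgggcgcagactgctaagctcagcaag
Vamp1, chr6:125215331-125215630, forward strand: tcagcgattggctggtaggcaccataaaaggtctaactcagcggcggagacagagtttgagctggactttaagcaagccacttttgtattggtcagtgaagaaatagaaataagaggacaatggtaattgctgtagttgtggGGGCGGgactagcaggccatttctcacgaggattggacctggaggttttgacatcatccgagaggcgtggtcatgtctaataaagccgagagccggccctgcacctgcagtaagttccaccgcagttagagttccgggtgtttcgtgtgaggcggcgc
Shank3, chr15:89499358-89499657, forward strand: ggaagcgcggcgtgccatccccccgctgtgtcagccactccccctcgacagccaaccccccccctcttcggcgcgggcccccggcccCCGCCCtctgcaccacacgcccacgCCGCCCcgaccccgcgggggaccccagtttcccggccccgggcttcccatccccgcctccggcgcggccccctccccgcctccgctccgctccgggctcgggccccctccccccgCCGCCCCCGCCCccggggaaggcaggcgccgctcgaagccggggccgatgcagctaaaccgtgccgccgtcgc
A promoter was matched for 31 of the 39 members (not matched: Nefl, Nefm, Nefh, Snap25, Vamp2, Syt4, Syn3 and Nrxn2). On either strand, the GC box was present in 22 of the 31 promoters (71.0%) and in 35.7% of all 32851 promoters of that length. The TATA box letters TATAAA were present in 1 member promoter, that of Sv2b, and in 13.6% of all promoters. The cAMP response element TGACGTCA was present in 3 member promoters (Napa, Syn1 and Sh3gl2) and in 1.79% of all. The left part of the RE1 element, TTCAGCACC, was present in those of Syn1 and Unc13a and in 0.371% of all. Each matched member had 1 promoter, the one nearest its annotated start, whereas all promoters include several starts of some genes. The shares of members and of all promoters are therefore not strictly alike. These are matches of letters, and binding was not measured.

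Levels are batch-corrected TPM, a unit scaled to transcript length and to the library total, and are given as means over the 42 mice. The median level of the members was 199 TPM, against 23.1 TPM for all genes tested. Among neuronal nuclear and cytoskeletal genes, the level was 969 TPM for Tubb3 (neuronal tubulin), 656 TPM for Nefl, 382 TPM for Nefm and 290.4 TPM for Nefh (the light, medium and heavy neurofilaments), 199 TPM for Map2 (a dendritic microtubule protein) and 34.1 TPM for Rbfox3 (the nuclear antigen NeuN). Among the fusion genes it was 829.1 TPM for Snap25, 491 TPM for Vamp2, 326 TPM for Nsf (the ATPase that takes the fused complex apart), 290.7 TPM for Napb, 256 TPM for Vamp1, 170.6 TPM for Napa (Napa and Napb recruit NSF) and 31.4 TPM for Stx1a. Cplx1, a complexin that clamps and promotes fusion, was the most abundant member at 2201 TPM. The other complexin, Cplx2, stood at 316 TPM, and the synaptotagmins at 720 TPM (Syt11), 384 TPM (Syt1), 173.9 TPM (Syt4) and 155 TPM (Syt2).

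Among the vesicle proteins, Sv2a stood at 692 TPM, Rab3a at 627 TPM, Syp (synaptophysin) at 523 TPM, Rab3c at 385 TPM and Syn1 at 225 TPM. Syn2 stood at 85.4 TPM, Sv2c at 83.0 TPM and Sv2b at 34.0 TPM, and Syn3 was the lowest member at 4.36 TPM. The active zone genes were low, with 59.4 TPM for Unc13a (which primes vesicles), 48.1 TPM for Rims1, 38.2 TPM for Bsn and 26.4 TPM for Pclo (the scaffolds bassoon and piccolo). Dnm1 (dynamin) stood at 592 TPM, Sh3gl2 (endophilin) at 131 TPM and Amph (amphiphysin) at 110 TPM. The adhesion and scaffold genes stood at 90.1 TPM for Nrxn3 and 78.2 TPM for Nrxn2 (presynaptic neurexins), 65.4 TPM for Dlg4 (PSD-95) and 31.3 TPM for Shank3 (a scaffold of excitatory postsynapses). In every pair of groups compared the ranges of all 39 members overlapped, and the share over all genes was not counted. The annotated exons of 16 members overlap those of another gene, among them Nefl with Nefm, Syn2 with Timp4 and Syn3 with Timp3, and counting without strand cannot separate reads there.

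**Figure D1:**
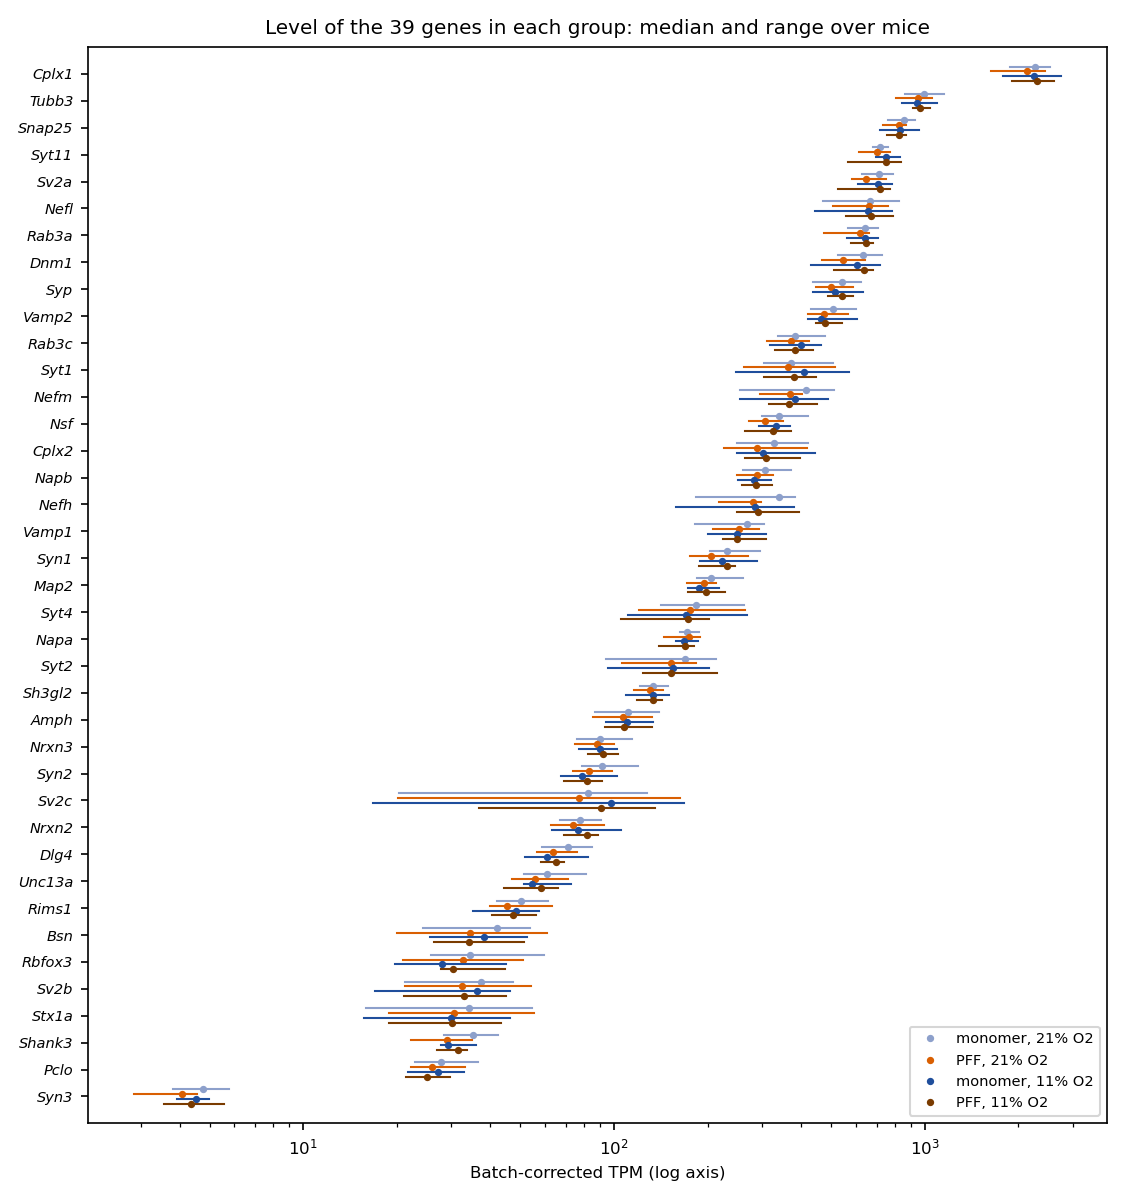
Batch-corrected TPM (log axis) of the 39 genes, ordered by mean level, with a line from the lowest to the highest mouse and a point at the median for each of the 4 groups (9 to 12 mice). Levels run from 2201 TPM (Cplx1) to 4.36 TPM (Syn3), the groups overlap for every gene, and Sv2c has the widest range, 16.8 to 168 TPM.

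Mice of a group differed little in some members and greatly in others. The coefficient of variation within groups, averaged over the 4 groups, was 5.76% for Napa, 6.12% for Snap25 and 6.41% for Syt11. It was 47.3% for Sv2c, 32.6% for Stx1a, 27.9% for Sv2b and 25.4% for Bsn. The median over the members was 11.3%, against 9.79% over all genes tested and 8.92% over those at least as high as the lowest member. Within monomer mice at 21% O2, Snap25 had a lowest, median and highest level of 763, 855 and 930.2 TPM, so that all mice were alike. In the same mice Sv2c had 20.4, 82.3 and 127 TPM, a spread of 6.25-fold between mice that had received the same treatment. Sv2c had 20.1, 77.2 and 162.8 TPM in PFF mice at 21% O2, 16.8, 98.2 and 168 TPM in monomer mice at 11% O2, and 36.6, 90.8 and 136 TPM in PFF mice at 11% O2. The fold from lowest to highest mouse was thus 8.09 and 3.70 in the PFF mice at 21% and 11% O2, with the widest range in monomer mice at 11% O2.

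Sv2c, Stx1a, Sv2b and Bsn, which varied most, were among the members that varied with the transmitter enzymes. Th ranged from 96.1 to 1079 TPM over the 42 mice and Gad1 from 266 to 619.8 TPM. For each member and enzyme, deviations of log2(TPM + 1) from the group mean were correlated over the 42 mice, with 100000 permutations within group and batch. Values share a library and its scaling. Within-batch correlations used levels before correction, as deviations from the group mean of that batch, in 15, 14 and 13 mice of batches 1, 2 and 3. All 14839 tested genes were treated alike, and p was adjusted by Benjamini–Hochberg over the 29676 relations. A relation was counted where Pearson's r and Spearman's rho each had an adjusted permutation p under 0.05 and r kept its sign in each batch.

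Sv2c, the vesicle protein of this family that is enriched in dopaminergic terminals, followed Th most closely. Pearson's r was 0.969 and Spearman's rho 0.946 (permutation p = 1e-05 for each, the smallest that 100000 permutations give; adjusted p = 0.000286 and 0.000276). It was 0.946, 0.989 and 0.990 in batches 1, 2 and 3, and 0.961 without the 2 mice farthest from the median of Th. The calcium sensor Syt1 had r = 0.833 and rho = 0.898 with Th (permutation p = 1e-05 for each, adjusted 0.000286 and 0.000276), with 0.923, 0.865 and 0.962 in the batches and 0.819 without 2 mice. In all, 19 of 39 members were counted as positive with Th, against 13.9% of all genes, and the median r was 0.409 over the members and -0.00135 over all genes. Among the 19 were Bsn (r = 0.805), Sv2b (r = 0.804), Stx1a (r = 0.771), Cplx2 (r = 0.751), Cplx1 (r = 0.717), Rims1 (r = 0.715), Amph (r = 0.713) and Syt4 (r = 0.704). They came from each of the 7 roles.

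A smaller set followed Gad1. Vamp1 had r = 0.940 and rho = 0.888 (permutation p = 1e-05 for each, adjusted 0.000286 and 0.000276), with 0.957, 0.960 and 0.954 in the batches and 0.919 without the 2 mice farthest from the median of Gad1. Nefl had r = 0.913 and rho = 0.889 (permutation p = 1e-05 for each, adjusted 0.000286 and 0.000276), with 0.976, 0.930 and 0.841 in the batches and 0.893 without 2 mice. The other members counted as positive were Syt2 (r = 0.881), Nefm (r = 0.879), Nefh (r = 0.861) and Sh3gl2 (r = 0.614), 6 in all, against 11.1% of all genes. Vamp1 and Syt2 are abundant in fast-spiking neurons, and neurofilaments are abundant in thick axons. Stx1a (r = -0.747), Amph (r = -0.681) and Syt1 (r = -0.666) were among 14 members counted as negative with Gad1, against 14.4% of all genes. Nefl, Vamp1 and Nefm were the 3 counted as negative with Th, against 9.3% of all genes. The 6 and the 3 were near or under the share of all genes in number (15.4% and 7.69% of the members). Th and Gad1 themselves had r = -0.572 and rho = -0.596 (permutation p = 0.0001 and 0.00029), with -0.821, -0.687 and -0.603 in the batches and -0.517 without the 2 mice farthest from the median of Th. Of the 39 members, 35 had opposite signs of r with the 2 enzymes, which were themselves negatively correlated. Opposite signs were not counted over all genes.

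Syt1 and Syt2, and likewise Vamp1 and Vamp2, differed in sign. Syt1 was counted as positive with Th and negative with Gad1, whereas Syt2 was counted as positive with Gad1 (r = -0.401 with Th, not counted). Vamp2 had r = 0.561 with Th and -0.617 with Gad1, and Vamp1 had the opposite signs. Cplx1 and Cplx2 were both counted as positive with Th, as were Sv2b and Sv2c, and the 3 neurofilaments were counted as positive with Gad1. Some families were split. With Th, Sv2a (r = 0.275), Rab3a (r = 0.199) and Nrxn2 (r = 0.220) were not counted, whereas Rab3c (r = 0.671) and Nrxn3 (r = 0.536) were. With Gad1, Cplx2 (r = -0.556) was counted as negative and Cplx1 (r = -0.256) was not counted. Snap25 was counted with neither enzyme. It had r = 0.132 with Th (rho = 0.200, permutation p = 0.353 and 0.193, adjusted 0.522 and 0.333), with 0.243, -0.0526 and 0.448 in the batches and 0.163 without 2 mice, and r = 0.305 with Gad1 (permutation p = 0.0745, adjusted 0.176). Dnm1 had r = 0.0729 with Th and 0.134 with Gad1, and Shank3 had 0.220 and -0.291, and none of these relations was counted.

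**Figure D2:**
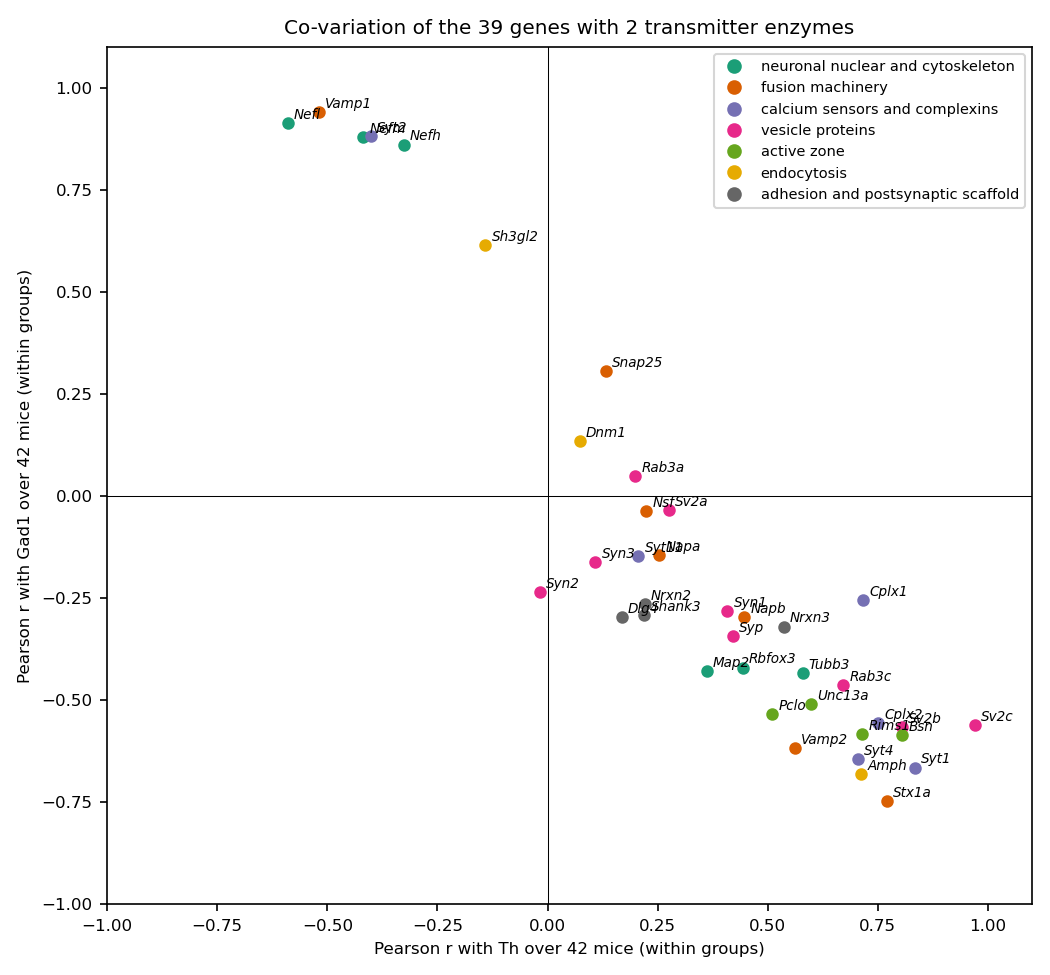
Pearson r of each of the 39 genes with Th (horizontal axis) and with Gad1 (vertical axis) over 42 mice, from log2(TPM + 1) after subtraction of the group mean, coloured by role. The neurofilaments, Vamp1, Syt2 and Sh3gl2 lie at the upper left, and Sv2c (0.969 with Th), Syt1, Bsn, Sv2b and Stx1a at the lower right.

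**Figure D3:**
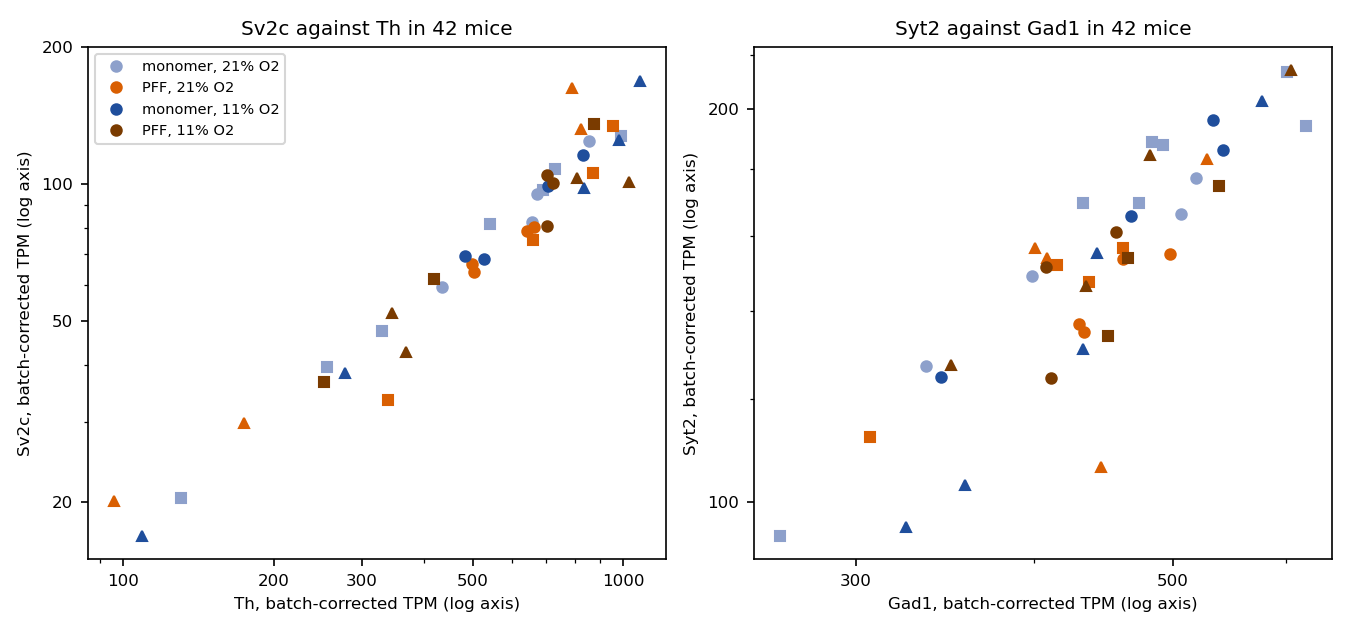
Batch-corrected TPM in each of 42 mice on log axes, Sv2c against Th (left) and Syt2 against Gad1 (right), with colours for groups and circles, squares and triangles for batches 1, 2 and 3. All 4 groups are spread along each relation, from 16.8 to 168 TPM of Sv2c and from 94.2 to 214.3 TPM of Syt2.

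The comparison of PFF with monomer at 21% O2 addressed the effect of fibrils without hypoxia. Shank3 fell, and the other 38 members did not pass an adjusted p of 0.05 with edgeR, although most estimates were slightly below 0. Shank3 had a lowest, median and highest level of 28.3, 35.2 and 42.2 TPM in monomer mice and 22.3, 28.9 and 34.9 TPM in PFF mice. All 12 PFF mice lay under the monomer median, but the groups overlapped. The log2 fold change was -0.23 (SE 0.057, 95% interval -0.35 to -0.12, adjusted p = 0.00895, edgeR quasi-likelihood test), a fall of 14.9% that did not reach the 0.25 required for a call. Within batches it was -0.16 (SE 0.11, 4 against 4 mice in batch 1) and -0.25 (SE 0.074, 4 PFF against 7 monomer mice in batch 2).

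By the call of adjusted p under 0.05 and a log2 fold change beyond 0.25, 0 of the 39 members were called by edgeR and 0 by DESeq2, against 3.7% of the 14839 genes tested by edgeR. With the adjusted p alone 1 member passed, against 7.59% of genes, and with an unadjusted p under 0.05 there were 8, against 22.4%. The next members by p were Dnm1, at -0.20 (SE 0.066, adjusted p = 0.0568 with edgeR, 0.0457 with DESeq2 and 0.0411 with limma), Syn3, at -0.19 (SE 0.065, adjusted p = 0.0585), and Nsf, at -0.13 (SE 0.047, adjusted p = 0.0722). Dnm1 had a lowest, median and highest level of 525.6, 634 and 727 TPM in monomer mice and 465.6, 547 and 641 TPM in PFF mice, and 11 of 12 PFF mice lay under the monomer median. Syn3 had 3.80, 4.75 and 5.78 TPM in monomer mice and 2.86, 4.08 and 4.56 TPM in PFF mice, all 12 PFF mice below the monomer median. Both pairs of groups overlapped.

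Over the module, 36 of 39 estimates were below 0, with a median of -0.07, against 49.63% below 0 and a median of 0.00 over all genes. The 3 above 0 were Sv2c (0.05), Nefl (0.03) and Napa (0.02). The members were measured in the same mice and many varied together. Their signs are therefore not independent of one another, here, by role and in the comparisons below. By role, estimates were below 0 for 4 of 4 active zone genes (median -0.10) and 4 of 4 adhesion and scaffold genes (median -0.11). The same held for 3 of 3 endocytic genes (median -0.07) and 6 of 6 synaptotagmins and complexins (median -0.07). It held for 8 of 9 vesicle proteins (median -0.07), 6 of 7 fusion genes (median -0.04) and 5 of 6 nuclear and cytoskeletal genes (median -0.09). The size of the shift differed by batch, with 37 of 39 below 0 in batch 1 (median -0.16) and 21 of 39 in batch 2 (median -0.02). The summed level of the module had a lowest, median and highest value of 11977, 13029 and 14533 TPM in monomer mice and 10873, 12220 and 13832 TPM in PFF mice. Precision was unequal, since the 95% interval lay within 0.25 of 0 on the log2 scale for 21 members, such as Snap25 (-0.12 to 0.04), and ran from -0.56 to 0.67 for Sv2c.

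Of the 80 other synaptic genes listed, 64 had estimates below 0 (median -0.07). Homer1, which links Shank proteins at excitatory postsynapses, was the gene called, at -0.27 (SE 0.056, adjusted p = 0.00157), with 7.66, 10.1 and 12.2 TPM as lowest, median and highest level in monomer mice and 7.07, 7.92 and 9.91 TPM in PFF mice. Erc1, of the active zone, passed the adjusted p alone (-0.20, SE 0.061, adjusted p = 0.0367). Estimates of cell type markers moved beside the module. All 8 oligodendrocyte markers were above 0 (median 0.05), of which Mog passed the adjusted p (0.20, SE 0.058, adjusted p = 0.0284), and all 6 microglial markers were above 0 (median 0.12). Of 5 endothelial markers Slco1a4 was called (0.45, SE 0.14, adjusted p = 0.0416), and the median of the 5 was -0.0037. The summed oligodendrocyte level was 9302 to 12790 TPM in monomer and 9229 to 12389 TPM in PFF mice. No marker of the 9 lists was at exactly 0 in any mouse, but some came close to it. The lowest levels were 0.0434 TPM for Slc17a6, of glutamatergic neurons, 0.0293 TPM among thalamic markers and 0.141 TPM among forebrain excitatory markers. The part of the cell type markers in the shift was not tested. Th stood at 0.05 (SE 0.31, adjusted p = 0.952) and Gad1 at -0.08 (SE 0.11, adjusted p = 0.703), with wide intervals.

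**Figure D4:**
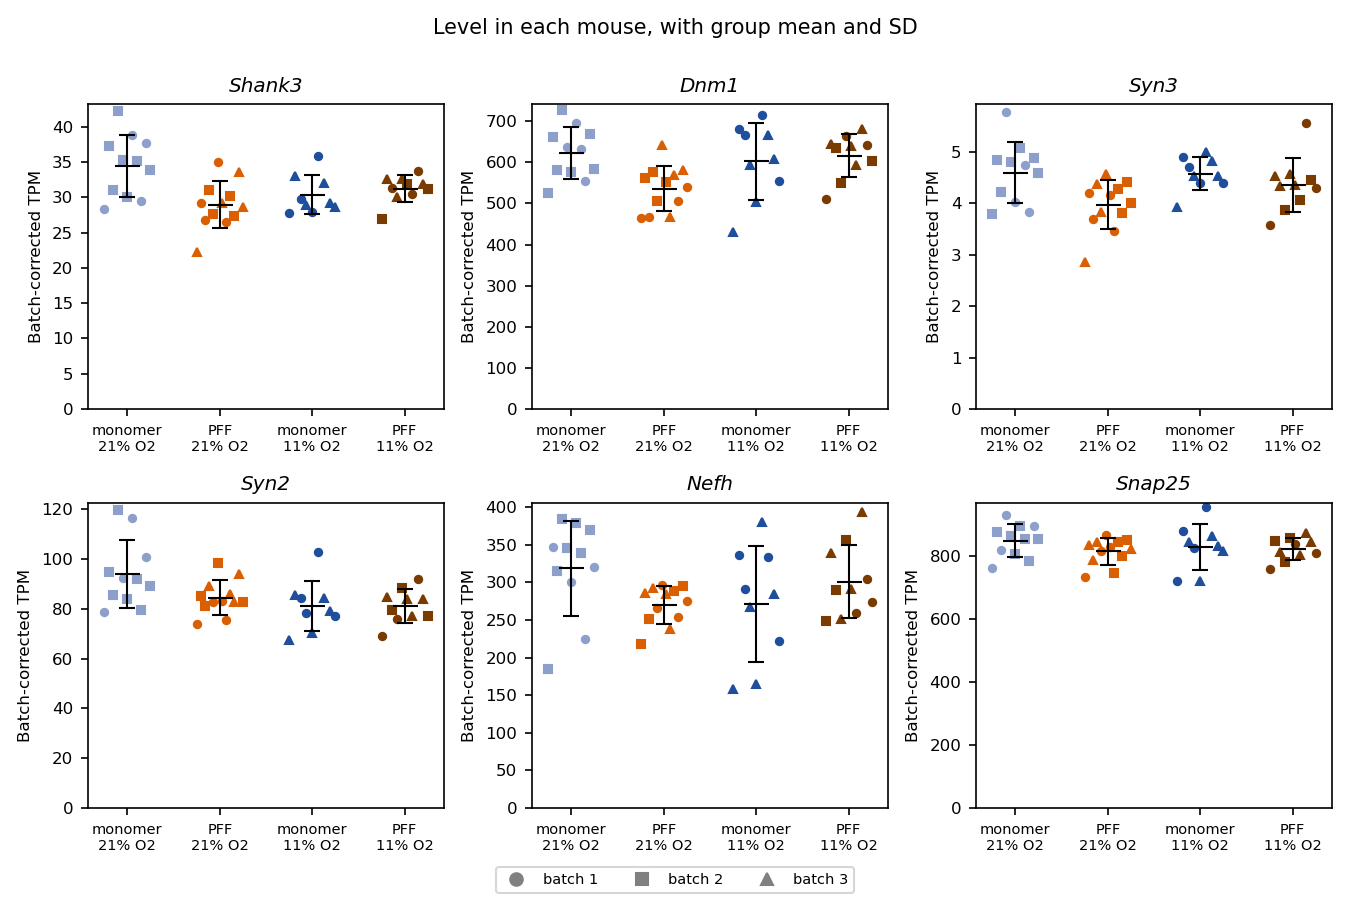
Batch-corrected TPM in each mouse for Shank3, Dnm1, Syn3, Syn2, Nefh and Snap25 by group, with shapes for the 3 batches, a horizontal mark at the mean and bars of 1 SD (9 to 12 mice per group). Shank3 is highest in monomer mice at 21% O2, with a mean of 34.5 TPM against 29.0, 30.4 and 31.3 TPM in the other groups, and all groups overlap.

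At 11% O2, PFF and monomer mice were compared to see the effect of fibrils under hypoxia. By edgeR 0 of 39 members were called, 0 passed the adjusted p alone, and 0 had an unadjusted p under 0.05, against 0%, 0% and 3.92% of all genes, and DESeq2 called 0 members as well. The members with the smallest p were Nefl, at 0.14 (SE 0.096), Syp, at 0.07 (SE 0.056), Nefh, at 0.17 (SE 0.13), and Map2, at 0.05 (SE 0.050), each with an adjusted p of 0.9997. Nefl had a lowest, median and highest level of 444, 654 and 787 TPM in monomer mice and 559.7, 673 and 788 TPM in PFF mice, with heavy overlap. Estimates were above 0 for 28 of 39 members (median 0.03), and for 6 of 6 nuclear and cytoskeletal genes (median 0.10). In batch 1, 20 of 39 were above 0, and in batch 3, 30 of 39, and the median lay between -0.01 and 0.05 when each mouse was left out. The 95% interval lay within 0.25 of 0 for 28 members. For Shank3 it was -0.07 to 0.18 around an estimate of 0.06, and 1 of 10 PFF mice was below the monomer median. All 8 oligodendrocyte markers had estimates below 0 here (median -0.12), and their part was not tested.

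The effect of 11% O2 in monomer mice addressed hypoxia without fibrils. Syn2, a synapsin that tethers vesicles in the reserve pool, and Shank3 were lower in the main fit. Neither passed the adjusted p in all alternative fits. Syn2 had a lowest, median and highest level of 78.7, 91.8 and 119.9 TPM at 21% O2 and 67.5, 79.2 and 103 TPM at 11% O2. Its log2 fold change was -0.21 (SE 0.066, 95% interval -0.34 to -0.08, adjusted p = 0.0281), and 8 of 9 mice at 11% O2 lay under the median at 21% O2. Shank3 had 28.3, 35.2 and 42.2 TPM at 21% O2 and 27.8, 29.2 and 35.9 TPM at 11% O2, with a log2 fold change of -0.18 (SE 0.062, 95% interval -0.30 to -0.05, adjusted p = 0.0478). Ranges overlapped for both genes. By the full call 0 of 39 members passed with edgeR and 0 with DESeq2, against 7.23% of all genes, while 2 passed the adjusted p alone, against 13.2%, and 5 an unadjusted p of 0.05, against 27.7%. The next by p were Dlg4, at -0.16 (SE 0.063, adjusted p = 0.0882), and Unc13a, at -0.19 (SE 0.078, adjusted p = 0.0929).

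The 2 oxygen levels of monomer mice met within a batch only in batch 1, with 4 against 4 mice, since batch 2 held no monomer mice at 11% O2 and batch 3 none at 21% O2. Within batch 1, Syn2 stood at -0.17 (SE 0.11) and Shank3 at -0.13 (SE 0.11), with adjusted p of 0.426 and 0.533. On counts before correction with batch as a covariate, neither passed (-0.20, adjusted p = 0.1103 for Syn2, and -0.17, adjusted p = 0.166 for Shank3), nor with the replicate block (adjusted p = 0.0576 and 0.0898). The share of all genes depended on this as well. In the main fit, which had no batch term, 1961 genes passed the adjusted p. With batch as a covariate on counts before correction, 990 passed. With each of the 20 mice left out in turn, Syn2 kept an adjusted p under 0.05 in 14 fits and Shank3 in 7.

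Over the module 32 of 39 estimates were below 0 (median -0.05), against 52.09% of all genes. In batch 1, where the 2 oxygen levels met, 24 of 39 were below 0 (median -0.06). With each mouse left out in turn, 27 to 35 were below 0. In the main fit the synaptotagmins and complexins were evenly split, with 3 of 6 below 0. In contrast, 6 of 6 nuclear and cytoskeletal genes and 4 of 4 active zone genes were below 0. Among the 80 other synaptic genes, Homer1 was called (-0.30, SE 0.060, adjusted p = 0.000548), and Shank2 (-0.22, SE 0.067, adjusted p = 0.0250) and Tubb2b, a tubulin (0.20, SE 0.061, adjusted p = 0.0259), passed the adjusted p alone. The 11 monomer mice at 21% O2 are the controls here and in the PFF comparison at 21% O2. The estimates of all members, Shank3 among them, and of Homer1 in the 2 comparisons are therefore not independent. Other cell types moved in these mice. All 5 endothelial markers rose (median 0.57), with a summed level of 120.3 to 174.7 TPM at 21% O2 and 176 to 319.8 TPM at 11% O2. Of 8 oligodendrocyte markers 3 rose (Mog, Mag and Cnp), with a summed level of 9302 to 12790 TPM and 9607 to 14814 TPM. The 4 thalamic markers had estimates below 0 (median -0.39) and none passed. The part of these markers in the members' estimates was not tested.

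In PFF mice, 11% against 21% O2 gave 0 called members by edgeR and by DESeq2, against 0.58% of all genes, 0 by the adjusted p alone, against 0.815%, and 4 by an unadjusted p under 0.05, against 10.7%. The 4 were Dnm1, at 0.20 (SE 0.067, adjusted p = 0.190), Syt11, at 0.10 (SE 0.042, adjusted p = 0.348), Cplx1, at 0.15 (SE 0.069, adjusted p = 0.418), and Syn3, at 0.14 (SE 0.067, adjusted p = 0.459). Dnm1 had a lowest, median and highest level of 465.6, 547 and 641 TPM at 21% O2 and 512, 638 and 682 TPM at 11% O2, and 9 of 10 mice at 11% O2 lay over the median at 21% O2. Its estimate was above 0 in each batch, at 0.26 (SE 0.075), 0.13 (SE 0.10) and 0.16 (SE 0.14). Over the module 29 of 39 estimates were above 0 (median 0.04), with 29, 19 and 24 above 0 in batches 1, 2 and 3. The 95% interval lay within 0.25 of 0 for 25 members. Of 5 endothelial markers 2 rose (Cldn5 and Flt1; median of the 5, 0.36), and their part was not tested.

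**Figure D5:**
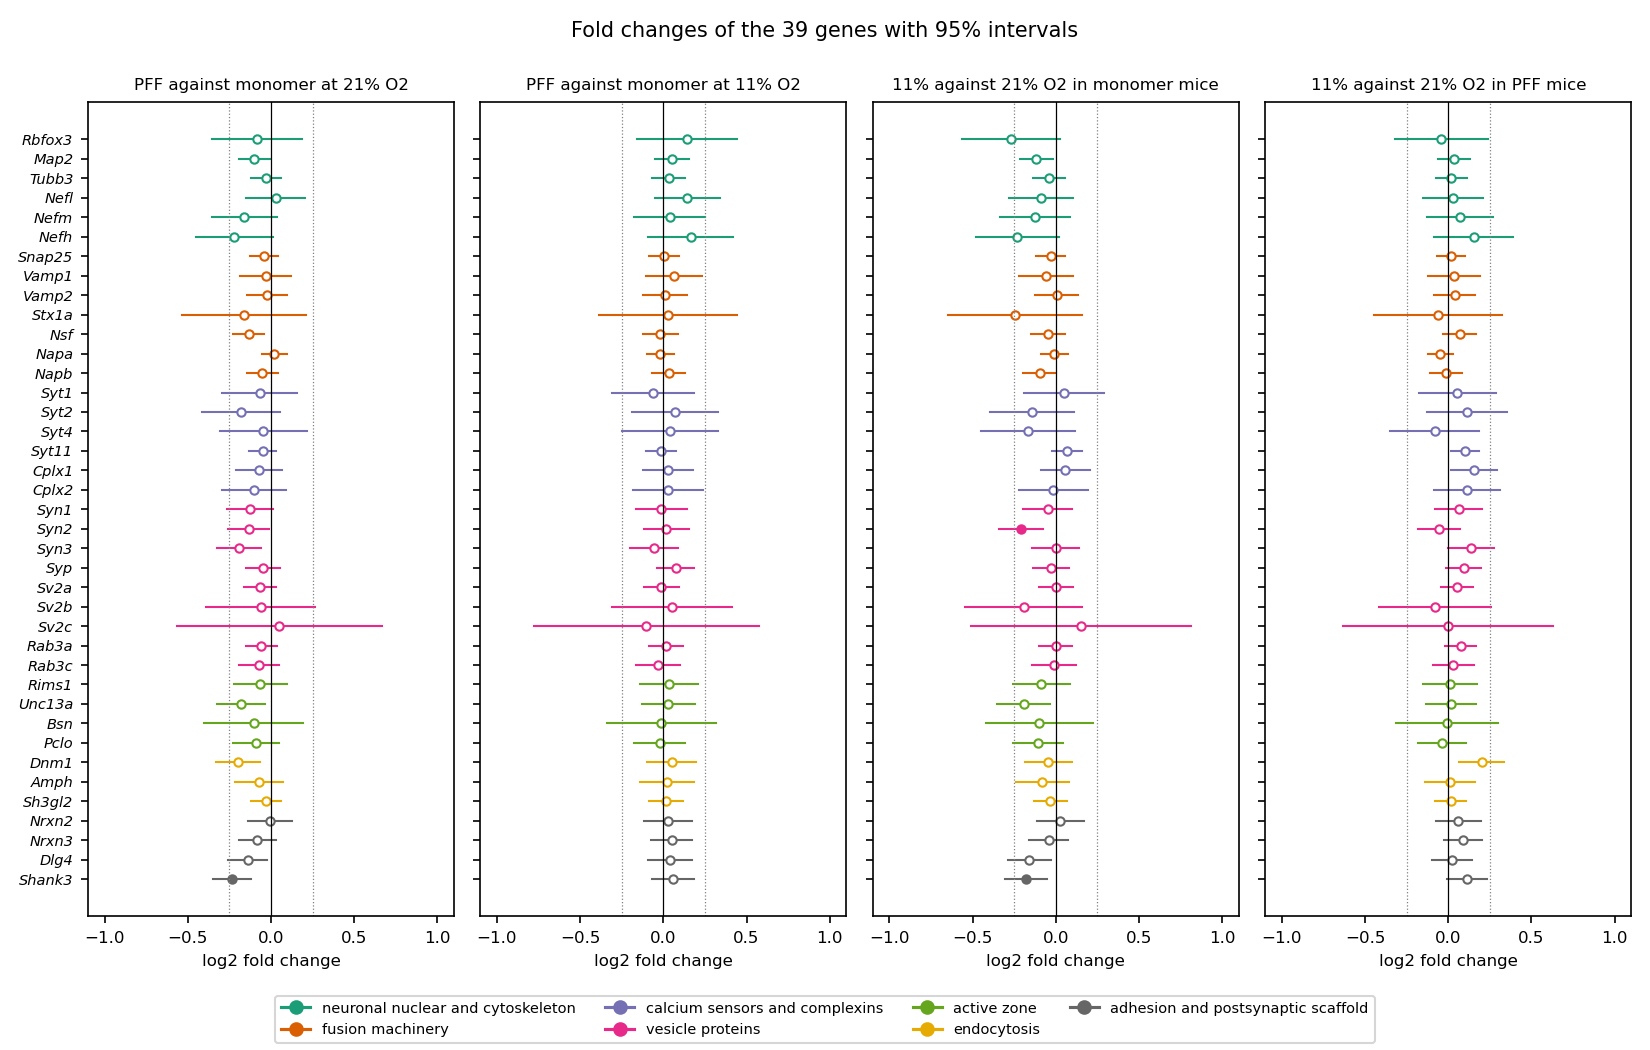
Log2 fold changes of the 39 genes with 95% intervals in 4 comparisons, coloured by role, with filled points where the adjusted p is under 0.05 and dotted lines at -0.25 and 0.25. Filled points are Shank3 for PFF against monomer at 21% O2, and Syn2 and Shank3 for 11% against 21% O2 in monomer mice.

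The interaction asked whether the PFF effect differed between oxygen levels. By edgeR 0 of 39 members were called, against 2.14% of all genes, 0 passed the adjusted p alone, against 2.32%, and 5 had an unadjusted p under 0.05, against 15.4%, while DESeq2 called 1 member, Shank3. The estimate of Shank3 was 0.29 on the log2 scale (SE 0.0855, 95% interval 0.12 to 0.46, adjusted p = 0.0569). The others with the smallest p were Dnm1, at 0.25 (SE 0.098, adjusted p = 0.190), Nefh, at 0.39 (SE 0.17, adjusted p = 0.252), and Map2, at 0.15 (SE 0.068, adjusted p = 0.262). Estimates were above 0 for 37 of 39 members, all but Sv2c (-0.15) and Napa (-0.04). The median over the members was 0.10, against 0.00 over all genes. The interaction is computed from the same 4 groups as the comparisons above, so these signs are not independent of theirs. Batch 1, the batch with all 4 groups, had 31 of 39 above 0. Nefh was -0.17 in that batch (SE 0.28), opposite in sign to its estimate over all mice. Homer1 was called (0.32, SE 0.083, adjusted p = 0.0273), whereas 64 of the 80 other synaptic genes had estimates above 0. All 8 oligodendrocyte markers had estimates below 0 (median -0.18), among which Mog passed (-0.33, SE 0.086, adjusted p = 0.0268), and their part was not tested.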

How the data were processed

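The data were bulk RNA-seq of the SN of 48 mice. The labels name STAR 2.7.5a, Picard 2.21.9, GATK 4.1.5.0-9, featureCounts 2.0.1 and Scanpy 1.8.1, and mm10. The authors counted reads per gene without strand and deposited whole-number counts and TPM for all mice. After leaving out 6 mice they corrected the counts of 42 for batch with ComBat-seq and deposited those counts and the TPM computed from them.

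Corrected counts were tested here with edgeR 4.0.16 in R 4.3.3 (TMM, filterByExpr by group, 4 groups in a single quasi-likelihood fit, no batch term), with p adjusted over 14839 genes. A standard error was derived from each F statistic and its fold change. A call required both an adjusted p under 0.05 and a change beyond 0.25 on the log2 scale in either direction. Totals per mouse lay between 12902996 and 17120921 counts before correction in the 42 mice, and from 3134594 counts in all 48. Named members were those with an adjusted p under 0.05 or, if fewer than 4 passed, the 4 with the smallest p, and every member has a level. The members, lists and tests were chosen with earlier results of these data known, and the relations with Th and Gad1 after seeing the levels. Exons and coordinates are from GENCODE vM21. The fit was tested on simulated data. Alternatives used DESeq2 1.42.0 and limma 3.58.1, among others given at the end.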

Additional observations from a re-analysis of the deposited data

Results flagged for a closer look

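Of 78 tests of a member in a group of 9 or 10 mice, 3 had a mouse set apart from the others by more than Dixon's 95% limit, where chance alone gives about 1 in 20. Napa had 139.3 TPM in replicate 1 of the PFF mice at 11% O2, the lowest of 10. Syn3 had 5.57 TPM in replicate 4 of that group, the highest of 10. The highest of 9 monomer mice at 11% O2 for Nrxn2 was replicate 3, with 105.0 TPM.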

How the results depend on the processing

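By the full call, 0 members were called in each of the 5 comparisons. For PFF at 21% O2 this became 1 with the adjusted p alone and 1 (Shank3) on counts before correction with no batch term, and 0 to 1 (Shank3, without replicates 2, 3 or 5 of monomer or 2 or 11 of PFF mice at 21% O2) when each mouse was left out in turn. For 11% O2 in monomer mice it became 2 with the adjusted p alone, 1 (Stx1a) with Th and Gad1 levels as covariates, and 0 to 1 (Syn2, without monomer replicate 3 at 11% O2) with a mouse left out. For the interaction it became 1, each time Shank3, with DESeq2, on counts before correction with no batch term and with Th and Gad1 as covariates, and 0 to 1 with a mouse left out (the same 5 mice, monomer replicates 3, 5 or 11 or PFF replicate 8 at 11% O2). By the adjusted p alone, members passing numbered 1 to 5 for PFF at 21% O2 and 0 to 4 for 11% O2 in monomer mice with a mouse left out, and 3 and 6 with Th and Gad1 as covariates. Dnm1 for PFF at 21% O2 passed the adjusted p with DESeq2 (0.0457), limma with either pseudocount (0.0411 and 0.0413) and centring by GC content (0.0136). Nsf passed with limma at a pseudocount of 1 (0.0498) and on uncorrected counts with no batch term (0.0347), and Syn3 in the latter (0.0286) and with Th and Gad1 as covariates (0.0476), where Unc13a also passed. The remaining 2 comparisons stayed at 0 under the alternatives run. Shank3 for PFF at 21% O2 kept an adjusted p under 0.05 in 23 of 23 fits that left out a mouse (0.00312 to 0.0258) and in the alternatives over all batches, but not in batch 1 alone (0.502) or batch 2 alone (0.0559). Single-batch estimates turned the sign of Nefl (-0.094) and Nefh (-0.22) for PFF at 11% O2 in batch 1, of Map2 (-0.013) in batch 3, and of Nefh for the interaction (-0.17) in batch 1. The median for PFF at 21% O2 was -0.14 without a batch term on uncorrected counts. The covariate fit and centring within 20 bins of transcript GC content were chosen after seeing the data. The paper describes a matched-pairs design, and the main fit has no term for pairs. Of 54 same-numbered pairs, 21 had deviations correlated above 0.1 (median 0.00335). Such correlations cannot tell whether the replicate numbers follow the matched pairs. With the replicate block 0 members were called in each comparison, and Syn2 (-0.19) and Shank3 (-0.16) in monomer mice no longer passed the adjusted p. Batch 2 and batch 3 alone could give only 2 comparisons each. At 12902996 to 17120921 counts per mouse, all 39 members passed the filter on low counts.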

Other observations

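The 6 mice that the authors left out, seen in levels before correction, were 3 monomer and 2 PFF mice at 11% O2 and 1 monomer mouse at 21% O2. Sv2c stood at 11.9, 12.6 and 59.2 TPM in the monomer mice at 11% O2 (replicates 8, 9 and 12), 60.2 and 52.6 TPM in the PFF mice (replicates 2 and 5), and 27.5 TPM in the monomer mouse at 21% O2 (replicate 10). Nefh ranged from 117 TPM (PFF replicate 2) to 364 TPM (monomer replicate 9 at 11% O2). Snap25 ranged from 580.3 to 784 TPM in these mice.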
